A study of Mus musculus with 4 samples.

Results

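Heat shock proteins and their J-domain partners were followed in RNA from fibroblasts of mouse mammary tumours. The genes were chosen by name and biotype: protein-coding genes of the Hspa, Hspb, Hspd, Hspe, Hsph and Hsp90 families, the Dnaja, Dnajb and Dnajc families, Bag1 to Bag6, Hsf1 and Hsf2. This gave 77 genes of 22456 in the table, of which 72 reached the mean of 3.32 (log2 of 10) needed for testing, among 14548 tested genes in all. The GSK group (2 libraries) held fibroblasts from tumours grown from 4T1 cells that had been kept for 5 days in 5 µM of GSK269962A. The DMSO group (2 libraries) held fibroblasts from tumours of 4T1 cells kept in the solvent. 4T1 is a mouse mammary carcinoma line that grows in Balb/c hosts, and in both groups the cells were grafted into the mammary fat pad of Balb/cAnN mice and left for 8 days. The compound was given to the cancer cells and not to the mice, so the labels name no treatment of the sequenced host cells. These are what was left after antibodies to CD45, CD31, CD326 and human CD2 had removed other cells, a mesenchymal fraction that can hold pericytes as well as fibroblasts; the age of the mice is not given in the sources used here.

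Heat shock proteins are chaperones: they bind unfolded stretches of other proteins, hold or refold them, or pass them on for breakdown. Hsp70 proteins do this in cycles of ATP hydrolysis, which J-domain proteins (Dnaja, Dnajb, Dnajc) start and nucleotide exchange factors (Hsph1, Hspa4, the Bag proteins) close. Some chaperones are made at all times, and others only in quantity when heat, toxins or tissue handling release the factor Hsf1 to bind heat shock elements in their promoters; the endoplasmic reticulum (ER) and the mitochondria each keep a set of their own.

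The values are normalised expression as the authors deposited it, without read counts, which leaves sequencing depth unknown. A log2 scale was inferred from their range and is not stated in the sources used here. Differences are GSK minus DMSO on that scale, which appears shrunken and so understates change, most at low expression. Whether the libraries of a group came from separate mice is not stated, and a p-value here covers the spread between libraries, which may be technical. Fibroblast genes were high, with Col1a1 at a mean of 20.51, while Ptprc (leukocytes) lay at 3.81, Pecam1 (endothelium) at 3.31 and Epcam (epithelium) at 0.32. Other genes of the same marker lists were higher, with Cd53 at 11.03, Cd3e at 8.62 and Csf1r at 8.28 for leukocytes, Tek at 7.64 for endothelium and Krt19 at 8.82 for epithelium.

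The promoters of the inducible genes are shown first because they carry the sequence by which these genes are known to respond together. A heat shock element is a chain of the unit GAA in alternating orientation; the short form searched was GAANNTTC or TTCNNGAA, each its own reverse complement, so that both strands are covered, and the forms overlap where more units follow. Below are the 250 bases before the start of 3 inducible genes, from RefSeq on GRCm38.p6, 5′ to 3′, with the elements in capitals. Hspa1a lies on the minus strand, chr17:34972157-34972406, its neighbouring copy Hspa1b on the minus strand, chr17:34959239-34959488, and Hspb1 on the plus strand, chr5:135887669-135887918. No annotated exon overlaps these windows.
Hspa1a: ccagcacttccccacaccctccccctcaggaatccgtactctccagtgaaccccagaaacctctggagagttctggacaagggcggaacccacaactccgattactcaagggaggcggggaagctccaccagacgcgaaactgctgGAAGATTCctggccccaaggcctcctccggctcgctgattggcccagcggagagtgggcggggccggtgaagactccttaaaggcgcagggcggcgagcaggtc
Hspa1b: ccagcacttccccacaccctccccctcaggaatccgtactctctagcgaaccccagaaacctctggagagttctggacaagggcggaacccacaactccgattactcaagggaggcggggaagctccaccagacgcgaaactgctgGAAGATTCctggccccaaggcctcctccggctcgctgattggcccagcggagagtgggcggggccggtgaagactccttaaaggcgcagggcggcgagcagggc
Hspb1: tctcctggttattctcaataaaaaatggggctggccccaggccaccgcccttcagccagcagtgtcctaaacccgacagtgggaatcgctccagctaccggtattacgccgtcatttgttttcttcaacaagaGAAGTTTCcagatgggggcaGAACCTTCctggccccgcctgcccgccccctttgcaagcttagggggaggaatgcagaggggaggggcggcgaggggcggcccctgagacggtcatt
The windows of Hspa1a and Hspa1b were identical over 247 of 250 bases. The differences from Hspa1a to Hspa1b, counted from 1 at the 5′ end, were C44T, T47C and T249G, none of them in the element, which starts 104 bases before each gene. In Hspb1 the elements start 117 and 97 bases before the gene. Hsph1 holds an element of 3 units just inside the annotated gene, and a longer chain lies just inside Hspd1 and just before Hspe1, which starts on the other strand. Both elements are given alone, on the minus strand at chr5:149636288-149636300 and chr1:55088059-55088076.
Hsph1: TTCTGGAAAGTTC
Hspd1: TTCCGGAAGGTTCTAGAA

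RefSeq promoters, which run from 250 bases before to 50 bases after the start, were found for 62 of the 77 genes. The short element was present in 8 of 9 inducible genes with a promoter in the table (Hspa1a, Hspa1b, Hsph1, Hspb1, Hspb8, Dnaja1, Dnajb4 and Bag3), and was not matched in those of Dnajb1. No promoter was found for Hspa8, Hsp90ab1, Hsp90aa1 and Hspa9, among others, so whether they hold the element is not known here. It was present in 2 of 7 mitochondrial genes (Hspd1 and Hspe1), 1 of 12 ER genes (Dnajc10) and 1 of 15 constitutive cytosolic genes (Dnajb6). Outside the inducible list 8 of 53 genes held it (15.1%), Dnaja4, Dnajc27, Hspb6 and Hspb3 among them. Of 21 co-chaperone and stress genes outside the families, 7 held it (33.3%). Of all 32851 promoters 15.1% held it, and of all 27025 genes with a promoter 17% did. The longer form, GAANNTTCNNGAA or its reverse complement TTCNNGAANNTTC, was in 0.603% of all promoters and in those of Hsph1, Hspd1, Hspe1 and Dnajb6. The inducible list was drawn up from known Hsf1 targets, so its share is a description of that choice.

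**Figure D1:**
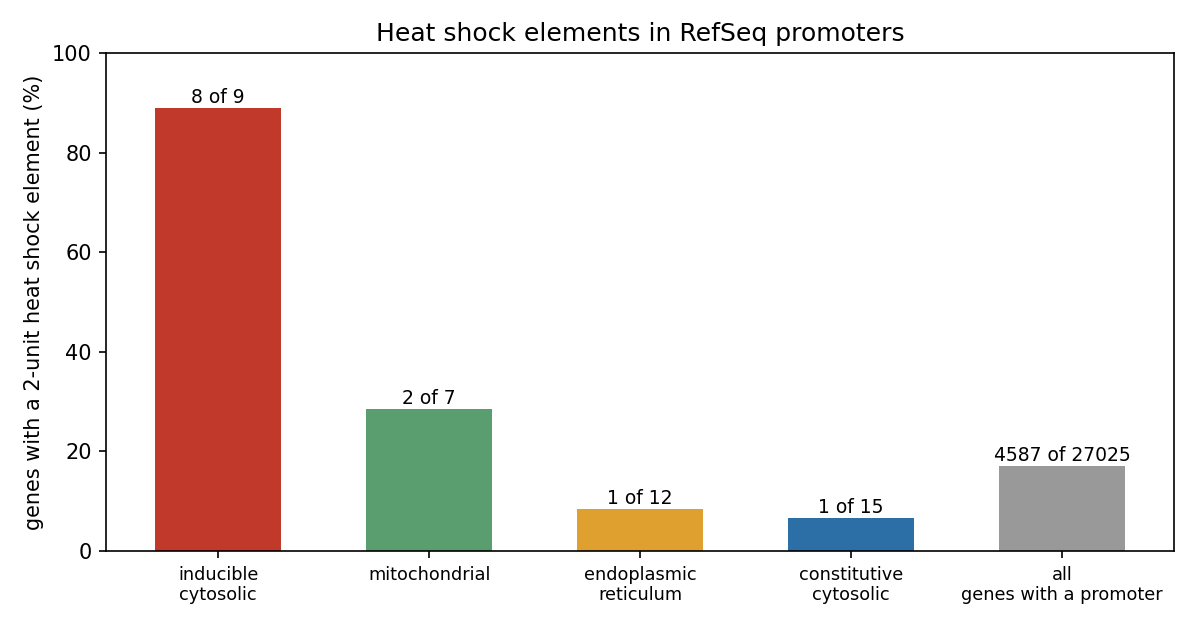
Share of genes (y axis, %) whose RefSeq promoter of 300 bases holds a 2-unit heat shock element, for 4 groups of chaperone genes and for all genes with a promoter; the counts stand above the bars. The inducible group holds it in 8 of 9 genes and the constitutive group in 1 of 15. Genes without a RefSeq promoter, such as Hspa8, Hsp90ab1 and Hsp90aa1, are not counted.

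Of the inducible cytosolic chaperones, Hspa1b and Hspa1a each passed the test as lower in fibroblasts from GSK tumours, but their sum did not. The other 8 did not pass. All 10 genes of this group had a negative difference, with a median of -0.36 and a range from -0.72 for Hspa1b to -0.15 for Dnaja1, beside a median of 0.00 over all tested genes. In all 10, both GSK libraries lay below both DMSO libraries, as they did in 24.5% of all tested genes. The genes and all lists here were chosen with earlier results of these data known, so such counts are descriptions and no independent evidence. With limma, 2 of the 10 passed an adjusted p of 0.05 as lower, Hspa1b and Hspa1a, and no gene of the group rose. Over all tested genes, 0.131% passed in that direction and 0.282% in either direction. Hspa1b and Hspa1a are near-identical copies between which reads may be shared out, so the 2 calls are not independent. Summed, they had a limma adjusted p of 0.0516. At an adjusted p of 0.10, 7 of the 72 tested chaperone genes passed, Bag3, Dnajb1, Hspb1, Hsph1 and Hspa8 besides the Hspa1 genes, and all were lower in GSK, where 1.33% of all tested genes passed as lower.

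Hspa1b and Hspa1a encode near-identical Hsp70 proteins that are the classical products of the heat shock response. Hspa1b (ENSMUSG00000090877, GRCm38 chromosome 17, 34956436 to 34959238) had 14.16 and 14.02 in the GSK libraries, against 14.86 and 14.76 in the DMSO libraries. The groups did not overlap, and the gap between them was several times the spread within either. By limma with Benjamini-Hochberg adjustment, as for every adjusted p here, the difference was -0.72 ± 0.08 (SE, adjusted p = 0.037), a level 39.2% lower in GSK. Hspa1a (ENSMUSG00000091971, chromosome 17, 34969190 to 34972156) had 13.63 and 13.49 in GSK and 14.22 and 14.12 in DMSO. Its groups did not overlap either, and the difference was -0.61 ± 0.07 (adjusted p = 0.046). Their transcripts match at 99.2% identity over 2201 bases, so reads could be shared out between them in any proportion, and the sum is the safer value. Hspa1a also shares 564 exonic bases with Gm20481 on the opposite strand, and the sources used here do not say whether reads were counted by strand. Summed, the pair had 14.92 and 14.78 in GSK and 15.57 and 15.48 in DMSO, a level 37.5% lower in GSK. The summed difference was -0.68 ± 0.08, with a 95% interval from -0.88 to -0.48. With the sum in place of both genes its limma adjusted p over 14547 genes was 0.0516, just short of the threshold that each gene passed alone. The exact permutation test gave p = 0.333, the smallest that 2 libraries against 2 can give. The calls ended without DMSO library 1 (adjusted p = 0.14 for Hspa1b and 0.157 for Hspa1a) and without GSK library 2 (0.0638 and 0.0813). They also ended with no filter on low genes (0.222 for both) and with a variance prior without a trend (0.0531 and 0.0634), and that of Hspa1a with a filter at log2 of 50 (0.051).

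Among the partners of the Hsp70 cycle, the inducible Dnajb1, Bag3 and Hsph1 had negative differences that did not pass. Dnajb1 (chromosome 8, 83608193 to 83612653), the J-domain protein that feeds clients to inducible Hsp70, had 11.22 and 11.10 in GSK and 11.76 and 11.58 in DMSO. Its difference was -0.51 ± 0.07 (adjusted p = 0.0576). Bag3 (chromosome 7, 128523616 to 128546981), which hands Hsp70 clients to autophagy, had 11.20 and 11.16 in GSK and 11.61 and 11.52 in DMSO. Its groups stood apart by more than the spread within either, with a difference of -0.38 ± 0.05 (adjusted p = 0.0546). Hsph1 (chromosome 5, 149614287 to 149636376), the heat-inducible Hsp110 that exchanges nucleotide on Hsp70, had 10.45 and 10.40 in GSK and 10.84 and 10.70 in DMSO. Its difference was -0.35 ± 0.06 (adjusted p = 0.0672). Without DMSO library 2 the differences were -0.60 for Dnajb1, -0.43 for Bag3, -0.41 for Hsph1 and -0.57 for Hspb1. Without DMSO library 1 they were -0.42, -0.34, -0.28 and -0.42 in the same order. With a robust variance prior Bag3 and Dnajb1 passed, but 138 of all tested genes then did, against 41 in the fit reported. With no filter on low genes no chaperone gene passed.

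Small heat shock proteins hold unfolded clients without ATP, and their members differed among themselves. Hspb1 (chromosome 5, 135887919 to 135889563), known as Hsp25 in mice and bound to actin in many cells, had 10.39 and 10.22 in GSK and 10.88 and 10.73 in DMSO, a difference of -0.50 ± 0.08 (adjusted p = 0.0589). Hspb8, the partner of Bag3, had 10.95 and 10.99 in GSK and 11.20 and 11.16 in DMSO, a difference of -0.21 ± 0.04 (adjusted p = 0.101). Both had groups that did not overlap. The forms known best from muscle lay near 0, with Hspb7 at 0.03, Hspb2 at 0.02 and Hspb6 at 0.01. The widest 95% interval of these was that of Hspb2, from -0.08 to 0.13. The groups of Hspb2 and Hspb6 overlapped and those of Hspb7 did not. Mean levels were 5.46 for Hspb7, 6.16 for Hspb2 and 6.19 for Hspb6, against 10.56 for Hspb1 and 11.08 for Hspb8. As the scale understates change most at low expression, values near 0 there do not show that these genes were unchanged. Hspb2 shares 252 exonic bases with Cryab on the other strand and is uncertain. Hspb9 and Hspb3 lay below the filter.

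The rest of the inducible group had smaller differences. Hsp90aa1 (chromosome 12, 110690605 to 110702728), the stress-inducible cytosolic Hsp90, had 13.54 and 13.37 in GSK and 13.79 and 13.62 in DMSO. Its difference of -0.25 ± 0.09 (adjusted p = 0.242) was little larger than the spread within each group, and GSK library 1 lay just below DMSO library 2; it was -0.16 without GSK library 2 or without DMSO library 1. Dnajb4, a J-domain protein of the cytosol, was at -0.19 (adjusted p = 0.161), and Dnaja1, the main farnesylated J-domain partner of Hspa8, at -0.15 (adjusted p = 0.347). Within a group the first library was the higher one in most of these genes: DMSO 1 exceeded DMSO 2 in 10 of 10 and GSK 1 exceeded GSK 2 in 9 of 10.

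**Figure D2:**
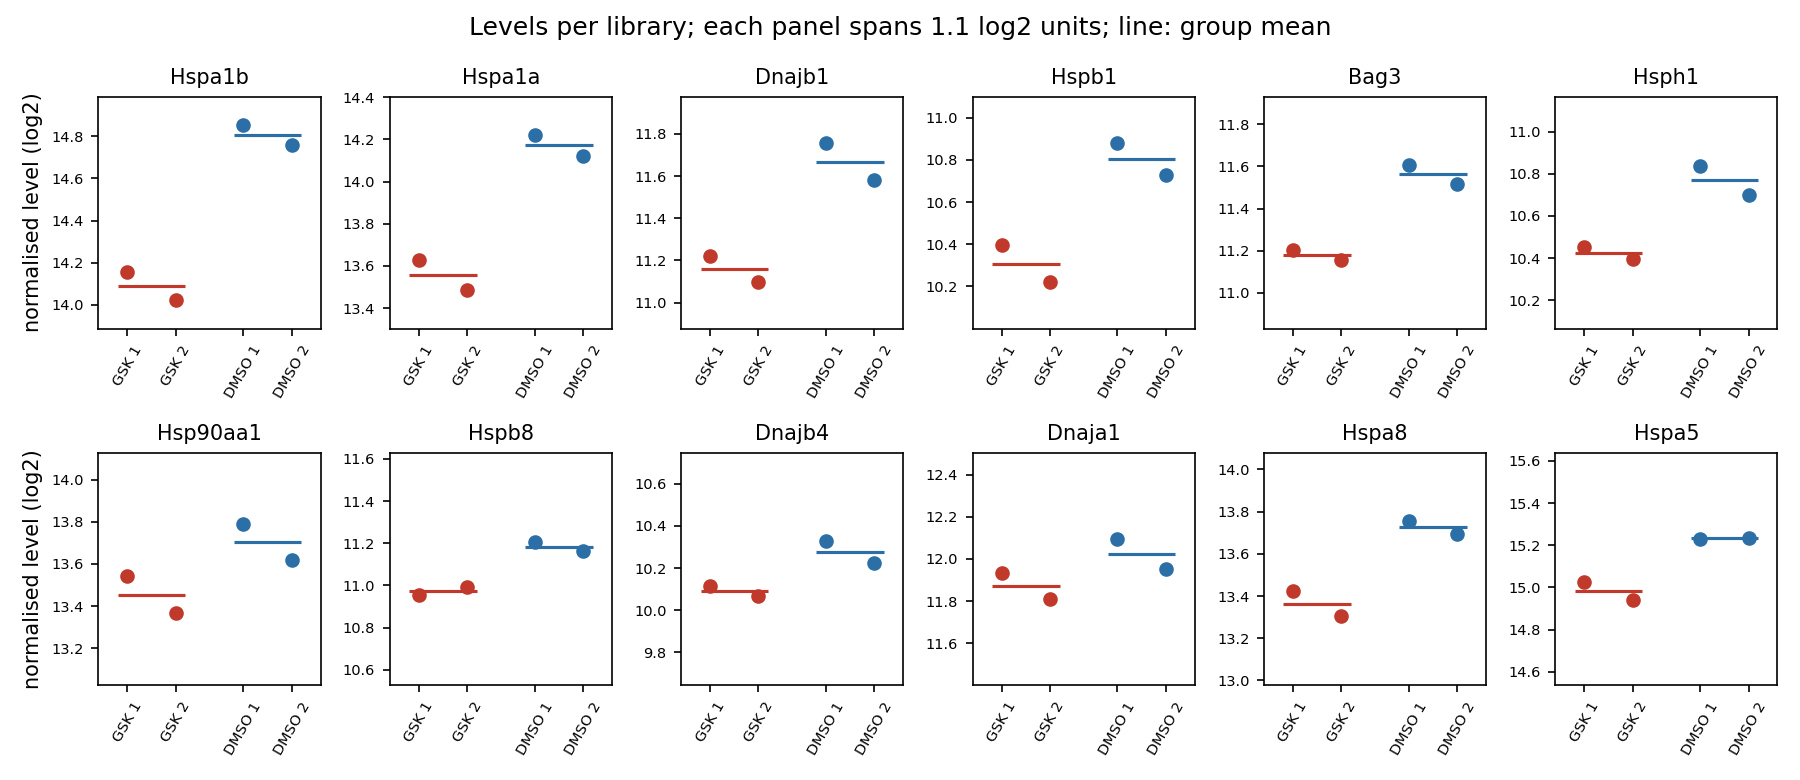
Normalised level (y axis, log2) of the 10 inducible genes and of Hspa8 and Hspa5 in each library (x axis, GSK in red, DMSO in blue), with a line at each group's mean; all panels span the same range. In each panel both GSK points lie below both DMSO points, by the widest gap in Hspa1b and the narrowest in Dnaja1.

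Constitutive cytosolic chaperones had differences close to 0, with Hspa8 farthest from it. Of 20 genes, 12 had a negative and 8 a positive difference, the median was -0.01, none passed the threshold, and 5 were lower and 3 higher without overlap, beside 24.5% and 24.1% of all tested genes. Hspa4, an Hsp110 made in unstressed cells, was at 0.00 with a 95% interval from -0.11 to 0.11. Hsp90ab1, the constitutive Hsp90, had 14.66 and 14.54 in GSK and 14.74 and 14.73 in DMSO, a difference of -0.14 ± 0.07 (adjusted p = 0.392) that was -0.08 without GSK library 2. Bag2, an inhibitor of the ubiquitin ligase that acts with Hsp70, was at -0.13 (adjusted p = 0.309), Dnajc9, a histone co-chaperone, at -0.06 and Bag5, a nucleotide exchange factor, at 0.09 (adjusted p = 0.404).

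Hspa8 (ENSMUSG00000015656, chromosome 9, 40800984 to 40810087), the Hsc70 of every cell, had 13.42 and 13.30 in GSK and 13.75 and 13.70 in DMSO. The groups did not overlap, and the difference of -0.36 ± 0.06 (adjusted p = 0.0732) was as large as those of Bag3 and Hsph1. Its value is uncertain, because its transcript matches other listed genes almost base for base: 99.6% over 1940 bases in Gm26825, a long non-coding RNA gene, 99.7% over 1941 bases in Gm15459 and 98.7% over 1941 bases in Gm8355, both processed pseudogenes. Gm26825 had 14.26 and 14.13 in GSK and 14.60 and 14.55 in DMSO, a difference of -0.38 (adjusted p = 0.084). Gm15459 had 12.88 and 12.82 in GSK and 13.35 and 13.38 in DMSO, a difference of -0.52 with an adjusted p of 0.033. Hspa8 summed with the 6 such genes in the table had 15.33 and 15.22 in GSK and 15.69 and 15.65 in DMSO, a difference of -0.39 in which the groups again did not overlap.

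ER chaperones had a median of 0.01, with 6 of 14 negative, 8 positive and none past the threshold. Hspa5 (ENSMUSG00000026864, chromosome 2, 34771970 to 34777547), or BiP, the Hsp70 of the ER, had 15.03 and 14.94 in GSK and 15.23 and 15.24 in DMSO. The groups did not overlap and the DMSO libraries were nearly equal, with a difference of -0.25 ± 0.07 (adjusted p = 0.174). Hsp90b1, or Grp94, the Hsp90 of the ER, had 15.43 and 15.27 in GSK and 15.38 and 15.28 in DMSO. Its groups overlapped, and the difference of 0.02 (95% interval from -0.20 to 0.23) turned to -0.02 after quantile normalisation. Dnajb9, a J-domain partner of BiP, was at -0.15 with groups that overlapped, and at -0.07 without DMSO library 1 and -0.08 without GSK library 2, while the membrane J-domain proteins Dnajc18 and Dnajb14 were both at 0.11 and Dnajc16 at 0.08. Among 13 other folding factors of the ER that are no heat shock genes, none passed, 7 were negative and 6 positive, and the median was -0.01, which turned to 0.02 after quantile normalisation. Herpud1, of ER-associated degradation, was at -0.12, P4hb at -0.13, Sil1, which exchanges nucleotide on BiP, at -0.08 and Sdf2l1 at 0.05.

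Mitochondrial chaperones had a median of -0.05, with 7 of 10 negative and none past the threshold; 6 were lower in GSK without overlap and 1 higher, beside 24.5% and 24.1% of all tested genes. The folding machines of the matrix were the lowest. Hspd1, the chaperonin Hsp60, had 11.88 and 11.69 in GSK and 12.03 and 11.91 in DMSO, a difference of -0.18 ± 0.08 (adjusted p = 0.314). Hspe1, its lid Hsp10, had groups that just failed to overlap, with a difference of -0.15 ± 0.07 (adjusted p = 0.355). Hspa9, mortalin, the Hsp70 of the matrix, had 12.22 and 12.07 in GSK and 12.27 and 12.25 in DMSO, a difference of -0.12 ± 0.06 (adjusted p = 0.402). Each of these gaps between the groups was smaller than the spread within one of them. Single libraries moved the values: Hspd1 was at -0.09 and Hspa9 at -0.05 without GSK library 2, Hspd1 at -0.28 and Hspa9 at -0.19 without GSK library 1, and Hspe1 at -0.06 without DMSO library 1 and -0.24 without DMSO library 2. Dnajc11, of the outer and inner membrane contact sites, was at -0.08 and Dnajc4 at 0.09.

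**Figure D3:**
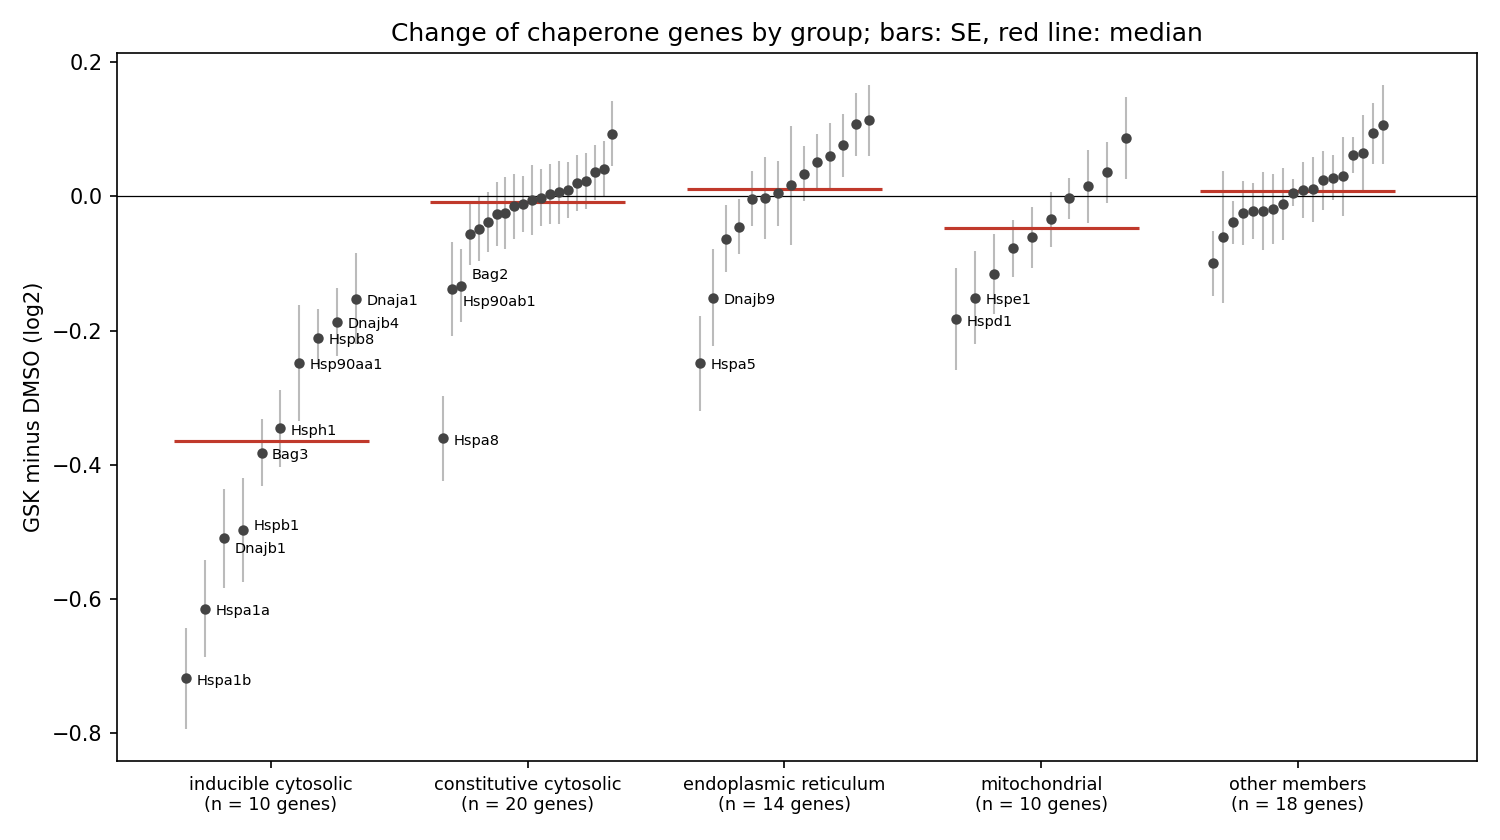
Difference between GSK and DMSO (y axis, log2, with limma's SE as bars) of the 72 tested chaperone genes, by group (x axis) and ordered within it; red lines are medians. The inducible group has its median at -0.36 and no gene above 0, and Hspa8 and Hspa5 stand below the other genes of their groups.

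Hsf1 and Hsf2, the factors that bind the heat shock element, differed little in mRNA. Hsf1, whose activity is set mainly after translation, had 9.14 and 9.16 in GSK and 9.17 and 9.18 in DMSO, a difference of -0.02 with a 95% interval from -0.12 to 0.08. Hsf2 had 7.91 and 7.86 in GSK and 8.01 and 7.96 in DMSO, a difference of -0.10 (adjusted p = 0.38). Neither pair of groups overlapped, but the gap between them was below the spread within a group.

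By family, the Dnajc genes, the largest set, had a median of 0.01 over 24 tested genes with 10 negative, and the Dnajb genes a median of 0.00 over 11 tested genes with Dnajb1 the lowest. The 14 Hsp70 and Hsp110 genes had a median of -0.05 with 9 negative. The genes with the largest positive differences were Dnajb14, Dnajc18, Hspa4l at 0.11, Hspa1l at 0.09 and Bag5, none with an adjusted p below 0.33. Hspa1l, a testis form beside Hspa1a, shares 1778 exonic bases with Gm10501 on the opposite strand and is uncertain. In all, 51 of the 72 tested genes were within 0.1 of 0, and at an unadjusted p of 0.05 12 genes were lower and 0 higher, beside 8.13% and 7.88% of all tested genes. Just above the filter, Dnajc12 had 3.73 and 3.72 in GSK and 3.73 and 3.71 in DMSO, and Dnajb13 4.04 and 4.08 in GSK and 4.02 and 3.98 in DMSO. Just below it, Dnajc6 had 3.21 and 3.25 in GSK and 3.17 and 3.18 in DMSO, and Hspb9 2.63 and 2.64 in GSK and 2.64 and 2.64 in DMSO. Dnajb7, Dnajc22 and Hspb3 lay lower still.

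Per kilobase of exon, and with 2 to the power of the level, the inducible group made up 29.3% and 28.9% of the summed chaperone signal in GSK, against 36.3% and 35.1% in DMSO. The Hspa1 pair alone held 17.0% and 16.7% in GSK and 23.0% and 22.5% in DMSO. The ER group held 36.4% and 36.3% in GSK and 32.3% and 32.7% in DMSO, and the constitutive group 26.9% and 27.4% in GSK and 24.7% and 25.5% in DMSO. Shares sum to the same total, so a smaller one for one group raises the others, and Hspa8 enters without the genes that match it.

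**Figure D4:**
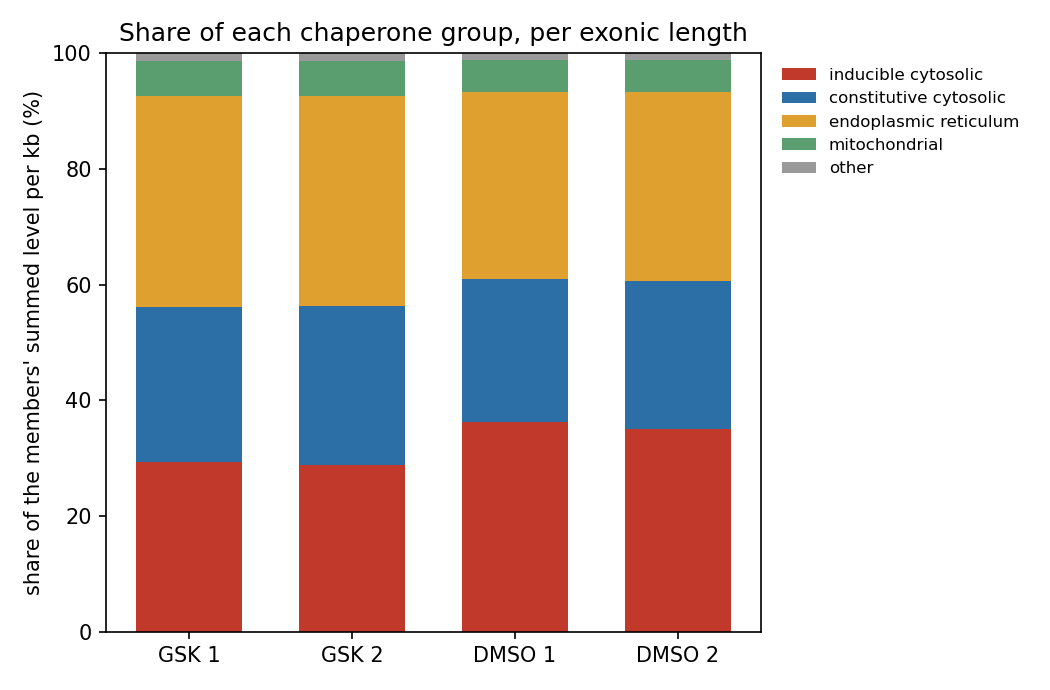
Share of the summed level per kilobase of exon (y axis, %) held by each chaperone group in each library (x axis), over all 77 genes. The inducible share is 29.3% and 28.9% in GSK and 36.3% and 35.1% in DMSO.

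Co-chaperones and other stress genes outside the families were read beside them. Of 26 such genes none passed, 18 were negative, 12 were lower in GSK without overlap and none higher (24.5% and 24.1% of all tested genes), and the median was -0.05. Subunits of the cytosolic chaperonin had small differences, with Cct3 at -0.12, and Ppid, an Hsp90 partner, was at -0.10. Cryab, a small heat shock protein, was at -0.19 (adjusted p = 0.371), while Serpinh1, the collagen chaperone Hsp47 of the ER, was at -0.01.

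Immediate early genes, which tissue digestion is known to raise along with inducible heat shock genes, also had negative differences. All 15 had an estimate at or below 0, that of Ier2 rounding to 0.00, with a median of -0.25; after quantile or TMM scaling 14 of 15 were negative. None passed the threshold and 13 were lower without overlap, beside 24.5% of all tested genes. The median was -0.14 without GSK library 2 and -0.37 without GSK library 1. Their summed level was 17.69 and 17.42 in GSK, against 17.92 and 17.80 in DMSO. Myc was at -0.68 (adjusted p = 0.0543), Nr4a1 at -0.44 (adjusted p = 0.0546), Ier3 at -0.46 and Atf3 at -0.61. In GSK library 1 the median deviation from each gene's mean was -0.01 for these genes and -0.15 for the inducible chaperones. It was -0.26 and -0.21 in GSK library 2, 0.21 and 0.24 in DMSO library 1, and 0.10 and 0.13 in DMSO library 2. Pericyte and smooth muscle markers had 9 of 10 positive differences, with none past the threshold, and a summed level of 16.07 and 16.17 in GSK, against 15.75 and 16.02 in DMSO. Leukocyte markers summed to 12.09 and 11.54 in GSK and 11.33 and 11.08 in DMSO, with 4 of 7 tested genes positive and most of the sum in Cd53, and epithelial markers to 9.03 and 8.83 in GSK and 9.21 and 9.15 in DMSO, with 3 of 4 tested genes negative and Epcam near 0. Their part in the chaperone result was not tested, and in bulk RNA fewer cells of a type and less RNA per cell cannot be told apart.

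**Figure D5:**
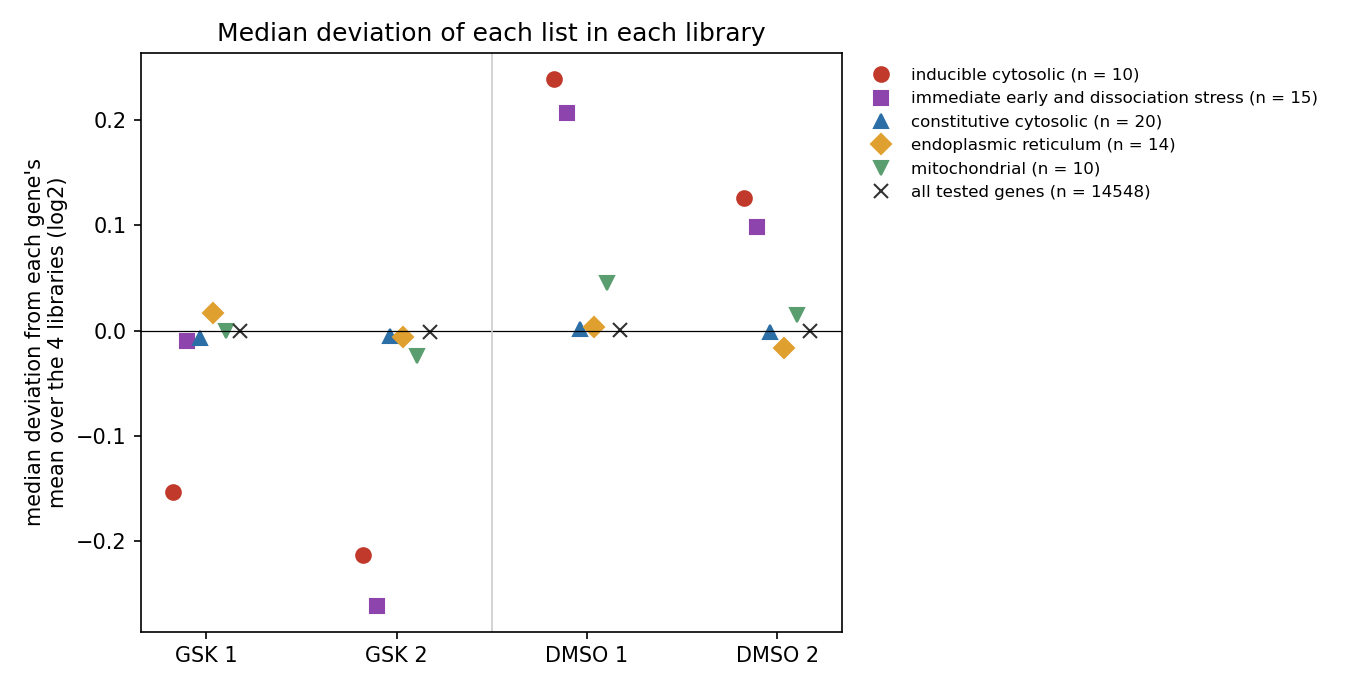
Median deviation of each list's genes from their own mean over the 4 libraries (y axis, log2), by library (x axis), for chaperone groups, immediate early genes and all tested genes. Inducible chaperones are at -0.15 and -0.21 in GSK and at 0.24 and 0.13 in DMSO. The immediate early genes are near 0 in GSK 1, at -0.26 in GSK 2 and at 0.21 and 0.10 in DMSO.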

How the data were processed

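The authors deposited normalised expression per gene, read here as log2, in 4 libraries of fibroblast RNA. Per the submitters' processing notes DESeq2 1.12.4, RSEM 1.2.29 and Bowtie2 were used, with the builds GRCh38 and mm10. What each was used for, the transformation, the log base and the strandedness are not given in the sources used here. Log2 was inferred from the deposited range, as values run from -1.035 to 20.58 and vary less in low genes, so folds of low genes are understated. IDs were matched to GENCODE M21 (22357 of 22456), and Dnajb8, Dnajc5b and Dnajc5g were not analysed here. GSK was compared with DMSO with limma 3.58.1 (R 4.3.3, trended prior) on all 14548 genes with a mean of at least 3.32, with p-values adjusted by Benjamini-Hochberg and called at 0.05; the script was tested on simulated data. Transcripts were compared with blastn 2.17.0 (98% identity over 200 bases or more). Named genes were those past the threshold, the 5 smallest p per group, the 5 largest rises and falls, 17 fixed genes, those beside the filter, and 4 per other list, of which 1 gene is not reported here; matching non-coding genes and Serpinh1 were added after their values were seen. The members and lists were chosen with earlier results of these data known. Alternatives were other filters, quantile and TMM scaling, variance priors, a replicate block, an adjusted p of 0.10 and leaving out each library.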

Additional observations from a re-analysis of the deposited data

How the results depend on the processing

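All 10 inducible genes kept a negative difference under every setting run, with a median from -0.42 to -0.31 over the fits that each left out a library and -0.30 without Hspa1a and Hspa1b. Counts of calls by limma moved far more. Of all genes 41 passed, against 1 with no filter, 23 after quantile normalisation, 11 without a trend, 138 with a robust prior, 363 at an adjusted p of 0.10 and 7 to 194 with a library left out. Of the chaperone genes 2 passed, against 0 with no filter, 1 with the stricter filter at log2 of 50, 0 without a trend, 4 with a robust prior, 7 at an adjusted p of 0.10 and 0 to 6 with a library left out; 12 had an unadjusted p under 0.05 in the fit reported. The summed Hspa1 pair passed with a robust prior (-0.68) and after quantile normalisation (-0.67), and was at -0.75 to -0.61 with a library left out, passing without GSK library 1. With the replicate number as a block, 1374 genes and 14 chaperone genes passed and the Hspa1 sum of -0.68 did too. Same-numbered libraries deviated together (correlation 0.43 across genes), but there would be only 2 pairs. The labels do not say what the number means, so whether the libraries are paired or share a batch is not known.

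Small differences changed sign: Hsp90b1 (-0.0193) and Hspb6 (-0.0005) after quantile normalisation, and with a library left out Hsp90b1 (-0.0628 to 0.0955), Hspb6 (-0.0157 to 0.0345), Hspa4 (-0.0238 to 0.0302), Hspb2 (-0.0102 to 0.0578) and Dnajc12 (-0.0032 to 0.0143). Medians moved for constitutive genes (-0.0014 after quantile normalisation, -0.0141 to -0.0012 with a library left out), ER genes (-0.0217 to 0.0387), small heat shock genes (-0.10 with the stricter filter, -0.0157 to 0.0290), all chaperone genes (-0.0203 with the stricter filter, -0.0292 to -0.0113) and other chaperone machinery (-0.0868 to -0.0207). The cause of these changes was not tested, and the fits that left a library out also had fewer libraries. With 2 libraries a group and unknown depth, differences the size of most constitutive genes were not detectable.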
